A study of Mus musculus with 12 samples.

Results

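The comparison described here set the hearts of male cardioGRKO mice against those of male floxed mice, with 3 RNA-seq libraries in each group. Floxed mice carry loxP sites on both copies of the glucocorticoid receptor gene and keep the receptor. CardioGRKO mice carry the same homozygous floxed alleles and also 1 copy of a Cre transgene under the αMHC promoter, which is active in heart muscle cells and deletes the gene there. All mice were C57BL/6, 2 months of age and untreated, and RNA came from the heart. The full data set holds 12 libraries, of which these are 6. The 6 other libraries carry female labels with the same genotypes, and the questions stated for the series were what the loss of the receptor changes in the heart and how this differs between the sexes. Every gene with a level of at least log2 of 10 in 3 of the 12 libraries was tested, which kept 14721 of the 24918 genes listed. A level is the log2 value that the authors deposited after normalization, and a difference is the mean of the 3 male cardioGRKO libraries minus the mean of the 3 male floxed libraries on that scale.

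The glucocorticoid receptor, encoded by Nr3c1, is a steroid-activated transcription factor. On binding corticosterone, the main glucocorticoid of the mouse, it leaves its chaperones, enters the nucleus and binds short palindromic response elements, or acts through other factors bound to DNA, to raise some genes and repress others. In the heart it is known for roles in the maturation of muscle cells before birth, in calcium handling, and in the metabolic and inflammatory response to stress. Fkbp5, Tsc22d3, Per1, Sgk1 and metallothioneins are among its best known targets.

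Several facts of the data bear on every value below. The groups rest on the library titles, because the genotype field reads wild-type for all 12 libraries. No floxed mouse carries the transgene, so an effect of Cre and an effect of the deletion cannot be told apart. Whether the 3 libraries of a group come from 3 animals is not stated, so p-values measure only the spread between libraries, which may be technical. The median SD within a group was 0.028 in male floxed and 0.025 in male cardioGRKO libraries. Deposited values of this kind hold no sequencing depth, so their number and spread alone set the precision. Heart muscle markers were high in all 6 libraries and none of the 15 was at 0. RNA was taken from whole tissue, in which fewer cells of a type and less RNA per cell cannot be told apart.

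Of the 14721 genes, 4032 were called at an adjusted p under 0.05, which is 27.4% of those tested (limma, Benjamini-Hochberg adjustment over all of them). In male cardioGRKO hearts 1879 genes were higher, 12.8% of those tested, and 2153 were lower, 14.6%. Most differences were small, with a median size of 0.12 log2 among the genes called and 0.041 among all genes tested. A 1.2-fold difference was exceeded by 263 of the genes called higher and 217 of those called lower, a 1.5-fold difference by 45 and 13, and a 2-fold difference by 19 and 4. The largest differences were thus mostly rises, although more genes fell than rose. In 6092 genes, 41.4% of those tested, the 3 libraries of 1 group all lay above the 3 of the other, and 3969 of the 4032 genes called were among them. The share of genes called rose with the level, from 12.1% at levels under 6 to 24.2% between 8 and 10 and 62.8% at 12 or above, and the largest difference of any gene under 6 was 0.44. A count for a list of highly expressed genes should be read with this in mind.

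**Figure D1:**
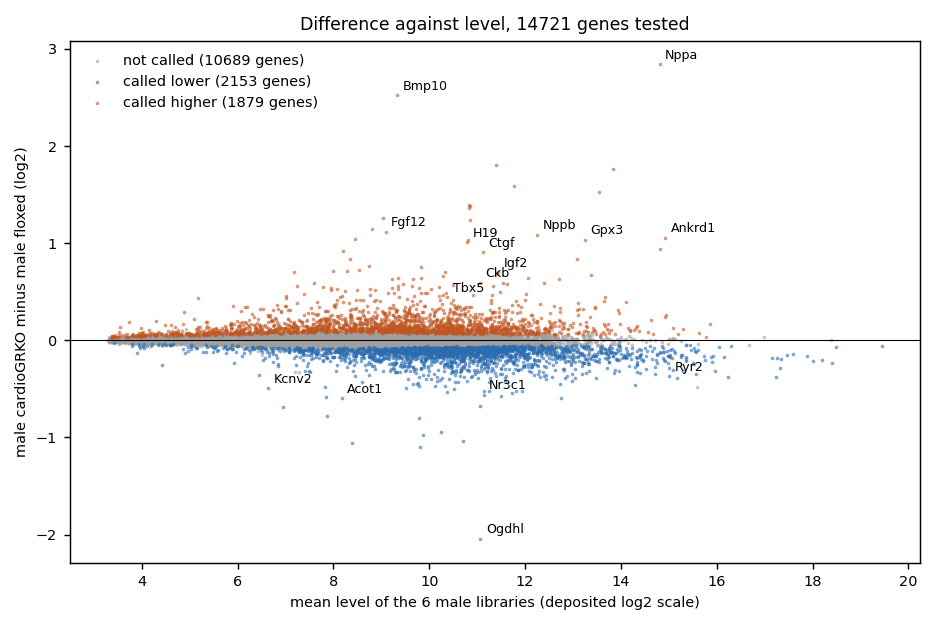
Each point is 1 of 14721 genes, with the mean level of the 6 male libraries on the horizontal axis and the difference of male cardioGRKO minus male floxed on the vertical axis, both log2; 1879 genes called higher are orange, 2153 called lower blue and the others grey. Nppa and Bmp10 stand far above the other rises, Ogdhl stands alone at the bottom, and differences are narrow at low levels.

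The targeted gene was read before any other. Nr3c1 stood at 11.40, 11.42 and 11.42 in the male floxed libraries and at 10.83, 10.85 and 10.88 in the male cardioGRKO libraries. The groups did not overlap, and the cardioGRKO mean was 67.8% of the floxed one (limma, adjusted p = 2.4e-11; exact two-sided permutation test, p = 0.1, which is the lowest value possible with 3 libraries on each side). The remaining transcripts cannot be assigned to cells, since other cell types of the heart keep the gene and reads over the floxed exons cannot be separated in a gene total. Nr3c2, the mineralocorticoid receptor, which also binds corticosterone, was not called (0.06, SE 0.035, adjusted p = 0.27). Hsd11b1, the enzyme that regenerates active glucocorticoid inside cells, fell from 8.29, 8.31 and 8.34 to 8.15, 8.11 and 8.10. Of the 11 tested receptors, ligand enzymes and chaperones 5 were called lower and 1 higher, with a median of -0.026. Fkbp4, a co-chaperone of the receptor, was among the 5, and its small fall of 0.06 became a difference of 0.00081 after quantile normalization. Of 13 coregulators 5 were called lower and 0 higher, led by the repressor Hic1 at -0.27. The other 4 differed by 0.10 at most.

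Genes known to be induced by glucocorticoids split in both directions. Of the 40 that were tested, 19 were lower and 10 higher, with a median of -0.054 beside -0.0021 for all genes tested. Sgk1, a kinase that controls ion transport, stood at 11.03, 11.06 and 11.07 in floxed and 10.64, 10.69 and 10.68 in cardioGRKO libraries, 76.8% of the floxed level (adjusted p = 2.4e-09). Mt1, a metallothionein that binds zinc and copper, went from 10.92, 11.04 and 10.997 to 10.54, 10.62 and 10.56, a change of -0.42 (SE 0.041, adjusted p = 6.5e-07). In both genes all cardioGRKO libraries lay below all floxed ones. Pik3r1, a regulatory subunit of phosphoinositide 3-kinase, fell by 0.31, and Ptgds, a prostaglandin D synthase, by 1.10. On the other side Ctgf, a secreted matrix protein that many signals induce, rose from 10.67, 10.66 and 10.64 to 11.54, 11.61 and 11.54. Fbxo32, a muscle ubiquitin ligase, and the arrestin-like Arrdc3 rose by 0.21 and 0.38, while Trim63, another muscle ubiquitin ligase, fell by 0.17. Tsc22d3, one of the best known targets, was also on the higher side, at 0.10 (SE 0.022, adjusted p = 0.0026). Dusp1, Nfkbia, Foxo3 and Cebpd were not called.

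Promoters show where the receptor's palindrome is written next to these genes. The letters searched were GNACANNNTGTNC, which read the same on both strands, in RefSeq promoters of build GRCm38.p6 that run from 250 bases before to 50 bases after a gene's start. Of 14713 distinct genes tested 11555 had a promoter in that table, and 51 of them (0.441%) held the letters. Among the glucocorticoid-induced genes 34 of 40 had a promoter and 4 held the letters (11.8%). All 4 are shown, whatever their call. Each was called lower, Mt1 at -0.42, Sgk1 at -0.38, Trim63 at -0.17 and Fam107a at -0.07, as were 19 of the 40 listed genes. Calls of the genes outside the list that held the letters are not given here. Capitals mark the match, sequences run 5′ to 3′ along the gene's strand and end before its start, and a match is a description of the letters and not a bound site.
Mt1, chr8:94178955-94179047, plus strand: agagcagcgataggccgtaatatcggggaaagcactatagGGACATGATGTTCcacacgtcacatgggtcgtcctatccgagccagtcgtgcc
Sgk1, chr10:21993662-21993754, plus strand: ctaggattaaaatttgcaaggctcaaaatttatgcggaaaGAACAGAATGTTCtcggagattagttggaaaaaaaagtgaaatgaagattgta
Trim63, chr4:134314872-134314964, plus strand: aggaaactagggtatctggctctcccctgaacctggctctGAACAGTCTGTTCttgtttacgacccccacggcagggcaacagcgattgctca
Fam107a, chr14:8309845-8309937, minus strand: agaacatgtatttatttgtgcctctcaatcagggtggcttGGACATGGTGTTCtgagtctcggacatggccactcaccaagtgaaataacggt
The matches begin 94, 188, 208 and 118 bases before the start in Mt1, Sgk1, Trim63 and Fam107a. For Sgk1 and Fam107a, which have several starts in the table, the start with the match is shown.

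The rises were led by atrial genes. Nppa, the gene of atrial natriuretic peptide, went from 13.39, 13.39 and 13.38 to 16.23 in each of the 3 cardioGRKO libraries, and Bmp10, a growth factor of atrial muscle, from 8.11, 8.07 and 7.999 to 10.62, 10.61 and 10.53. Among 16 atrial genes 15 were called higher and 1 lower, with a median of 1.204. The exception was the atrial potassium channel Kcna5 at -0.26 (SE 0.027, adjusted p = 1.1e-06). Pam, the enzyme that amidates peptide hormones and is abundant in atrial granules, stood at 14.36, 14.35 and 14.36 and at 15.31, 15.29 and 15.28 in the 2 groups. Stard10, a lipid transfer protein, rose 2.04-fold, and Sbk3 and Sbk2, muscle kinases of the atria, 2.37-fold and 1.71-fold. No library of 1 group overlapped the other in any of these genes, as in 3969 of the 4032 genes called. The smallest rise in the list was that of Chrm2, the muscarinic receptor of the heart, at 0.22 (SE 0.029, adjusted p = 2.1e-05).

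Summed over 12 atrial markers, none of which was at 0, the linear level was 99.2% to 100.6% of the male floxed mean in male floxed libraries and 409.7% to 411.5% in male cardioGRKO libraries. The same sum was 320.6% to 330.6% in the libraries labelled female floxed and 160.1% to 162.9% in those labelled female cardioGRKO, so male floxed libraries were the lowest of the 4 groups. The share of atrial tissue in a sample was not measured, and its part in this result and in every other difference below was not tested. Because the sum did not overlap between the 2 male groups, it cannot be separated from genotype in these 6 libraries. A linear sum weighs highly expressed members most. Nppa, at 16.23 in male cardioGRKO libraries, rose the most of the 12, by 2.84 log2. The median difference of the 12 markers was 1.458 log2, with 11 called higher and 1 lower.

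The other large rises were of secreted factors, stress genes and channels. Nppb, the B-type natriuretic peptide, which wall stress induces, stood at 11.73, 11.69 and 11.71 in floxed and 12.80, 12.81 and 12.77 in cardioGRKO libraries. Ankrd1, a nuclear and sarcomeric protein induced by stretch, went from 14.43, 14.39 and 14.39 to 15.47, 15.45 and 15.45, a 2.08-fold rise. Both genes separated the groups by about 1 log2 unit. Gpx3, a secreted glutathione peroxidase, rose from 12.74, 12.71 and 12.73 to 13.78, 13.77 and 13.73. Lgals3, galectin-3, which macrophages and injured tissue release, went from 7.93, 7.89 and 7.97 to 8.76, 8.76 and 8.78 (SE 0.074, adjusted p = 2.2e-07). In all 4 genes the groups stood clear of each other, as the rule that named them requires.

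Several genes that are high before birth rose in the same comparison. In a list of fetal and slow skeletal isoforms 9 of 13 were called higher and 1 lower, with a median of 0.26. With a minimum fold of 1.2 in the test, 5 were higher and 0 lower. Myl4 and Nppa of that list are atrial genes as well. Nppb, Ankrd1 and Ctgf, also in it, are induced by stress, stretch or many signals. H19, an imprinted noncoding RNA that is high before birth, stood at 10.27, 10.39 and 10.21 in floxed and 11.30, 11.32 and 11.27 in cardioGRKO libraries. Igf2, the fetal growth factor imprinted in the opposite way at the same locus, went from 11.08, 11.07 and 11.09 to 11.77, 11.82 and 11.76. Both rose, by 1.01 and 0.70. Igfbp5, which binds insulin-like growth factors, rose by 0.84, Igfbp4 by 0.36 and Igfbp3 by 0.34. Fgf12, an intracellular member of the fibroblast growth factor family that binds sodium channels, rose from 8.60, 8.52 and 8.48 to 9.66, 9.65 and 9.64. In the list of growth factors and receptors 16 of 40 were called higher and 5 lower, with a median of 0.045. Vegfa, the main angiogenic factor, was lower, at -0.18 (SE 0.015, adjusted p = 1.8e-07). Further rises among the 25 largest were those of Cacna2d2, a calcium channel subunit, at 2.21-fold, of the zinc transporter Tmem163 at 2.07-fold, and of Sfrp5, a secreted Wnt antagonist, at 1.90-fold.

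The falls were smaller than the rises and many belonged to metabolism. Ogdhl, a relative of the 2-oxoglutarate dehydrogenase of the citric acid cycle, stood at 12.11, 12.09 and 12.07 in floxed and 10.05, 9.99 and 10.09 in cardioGRKO libraries, which leaves 24.2%. Cyp26b1, which degrades retinoic acid, went from 8.91, 8.91 and 8.96 to 7.89, 7.89 and 7.83. Phyhd1, a dioxygenase, and Csdc2, an RNA-binding protein, fell to 48.8% and 52.1% of their floxed levels. Apart from falls of 0.67 or more, which include those of Bdh1 and Iigp1 below, no gene fell by more than 0.60, the value of Art3, a relative of ADP-ribosyltransferases. Acot1, which releases fatty acids from coenzyme A, went from 8.45, 8.46 and 8.50 to 7.85, 7.89 and 7.89. It has a near-identical neighbour, Acot2, and reads may have been divided between them; Acot2 changed by -0.32 (SE 0.031, adjusted p = 5.2e-07). Pfkfb1, which sets the level of an activator of glycolysis, fell from 8.15, 8.21 and 8.08 to 7.55, 7.54 and 7.59. Cardiac transcripts of other functions fell too. Slc41a3, a magnesium transporter, changed by -0.57, the ubiquitin ligase adaptor Asb11 by -0.54, and Tmx1, a disulfide isomerase of the endoplasmic reticulum, by -0.53. Efnb3, an ephrin ligand, also changed by -0.53, the calcium-binding Tesc and the Wnt protease Trabd2b by -0.52 each, and the membrane protein Ano10 by -0.51. Kcnv2, a potassium channel subunit that silences its partners, stood at 6.84, 6.91 and 6.90 against 6.40, 6.35 and 6.40. Lrg1, a secreted glycoprotein of inflamed vessels, Ddit4, a stress-induced inhibitor of mTOR, and Whrn, a scaffold protein, reached 71.2%, 72.1% and 72.1% of their floxed levels. Ucp1, the uncoupling protein of brown fat, fell by 0.48, and the adipocyte markers are given with it further on.

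**Figure D2:**
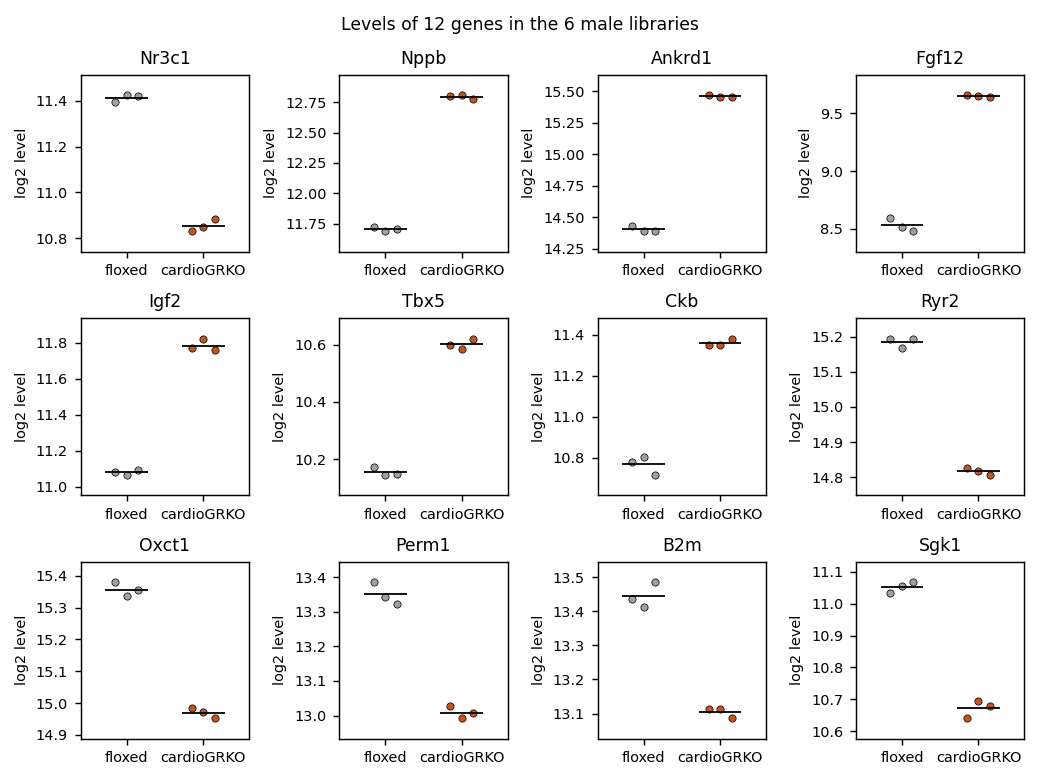
Deposited log2 levels (vertical axes, each scaled to its gene and not starting at 0) of 12 genes in the 3 male floxed (grey) and 3 male cardioGRKO libraries (orange), with 1 point per library from replicate 1 on the left to 3 on the right and a line at the group mean. In each panel the groups do not overlap, with Nppb, Ankrd1, Fgf12, Igf2, Tbx5 and Ckb higher and Nr3c1, Ryr2, Oxct1, Perm1, B2m and Sgk1 lower in cardioGRKO.

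Transcription factors that pattern the heart differed less than the atrial genes. Of 22 tested, 8 were called higher and 4 lower, with a median of -0.0052. Tbx5, a T-box factor needed for atrial and septal development, stood at 10.17, 10.14 and 10.15 in floxed and 10.60, 10.58 and 10.62 in cardioGRKO libraries, a 1.36-fold rise without overlap. Tbx20, another T-box factor, and Nkx2-5, a master regulator of heart muscle, rose by 0.16 and 0.12. Prdm16, a chromatin regulator of compact ventricular muscle and brown fat, went from 9.90, 9.91 and 9.88 to 9.53, 9.57 and 9.57. Tbx3, a factor of the conduction system, was not called. Ventricular genes showed the opposite sign at small size, with 3 of 7 called lower and 0 higher. Myl2 and Myl3, the ventricular myosin light chains, fell by 0.16 and 0.20, and Hey2, a ventricular repressor of atrial genes, by 0.14. This direction depended on the scaling. After quantile normalization Myl3 was higher by 0.051, and the median of the list moved from -0.078 to 0.028. Myh7, the slow myosin heavy chain, was not called (-0.01, SE 0.021).

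The natriuretic system changed at its hormones more than at its receptors. Besides Nppa and Nppb, 1 of the 8 other tested members rose. Npr3, the receptor that clears natriuretic peptides, stood at 9.44, 9.42 and 9.48 in floxed and 10.20, 10.17 and 10.22 in cardioGRKO libraries, a 1.68-fold rise. Corin, the protease that activates atrial natriuretic peptide, fell by 0.12, and Mme, neprilysin, which degrades it, by 0.25. Npr1, the signalling receptor, was called at -0.08 (SE 0.028, adjusted p = 0.036), although 1 cardioGRKO library lay within the floxed range. The counts over the 10 tested members were therefore 3 higher and 3 lower.

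In the list of calcium handling, more genes fell than rose. Of its 29 tested members 14 were called lower and 4 higher, with a median of -0.055. After quantile normalization 12 were lower and 5 higher, with a median of -0.016. Ryr2, the calcium release channel of the sarcoplasmic reticulum, went from 15.20, 15.17 and 15.19 to 14.83, 14.82 and 14.81, which is 77.4% of the floxed level. Its partner in the release complex, Trdn, triadin, fell by 0.30 (SE 0.029, adjusted p = 6.9e-07). The pump Atp2a2, which refills the store, the exchanger Slc8a1, which extrudes calcium, and the L-type channel Cacna1c, through which calcium enters, fell by 0.20, 0.24 and 0.23. Within this list the rises were of Cacna1g, a T-type channel found in atrium and pacemaker tissue, at 0.56, and of Casq2, Camk2d and Cacnb2 at 0.13 (SE 0.017, adjusted p = 1.7e-05), 0.12 (SE 0.021, adjusted p = 0.0004) and 0.10 (SE 0.024, adjusted p = 0.0069). Larger rises of calcium genes stood in other lists. Cacna1h, the other T-type channel of the heart, went from 10.13, 10.16 and 10.19 to 11.50, 11.54 and 11.57, and Sln, the atrial inhibitor of the calcium pump, Casq1, the skeletal calsequestrin, and Cacna2d2 rose by 1.59, 1.37 and 1.14. On the deposited scale the cardioGRKO libraries were lower for the release channel, the pump and the exchanger, and higher for the T-type channels.

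Ion channels moved in both directions. Of 23 potassium channel genes 7 were called higher and 9 lower, and of 18 genes of sodium channels, pacemaker channels, pumps and connexins 7 were higher and 6 lower. After quantile normalization the latter count was 7 higher and 2 lower. Kcnj3 and Kcnj5, which form the acetylcholine-gated channel of atrial and nodal cells, stood at 9.12, 9.02 and 9.13 against 9.57, 9.64 and 9.63, and at 11.31, 11.35 and 11.35 against 11.90, 11.92 and 11.93. Abcc8, the sulfonylurea receptor found in mouse atrium, rose by 0.39, whereas Abcc9, the form of ventricle and vessel, fell by 0.17. Scn10a, a sodium channel, rose by 0.31. Rgs6, which shortens muscarinic signalling in atrial cells, rose by 0.49 among 31 genes of adrenergic and cyclic AMP signalling, of which 9 were higher and 9 lower. The atrial marker sum given above also differed between the 2 groups. Kcnj3 and Kcnj5 are among the 12 markers in it, so for them the sum is no separate observation.

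Genes of the contractile apparatus were called in both directions. Of 24 sarcomere genes 11 were higher and 8 lower, with a median of 0.015, but quantile normalization gave 14 higher and 1 lower, with a median of 0.070. Tnnt2, the thin filament protein troponin T, stood at 18.13, 18.12 and 18.09 against 17.90, 17.91 and 17.89. Mylk3, the kinase of the myosin light chain, rose from 13.81 in each floxed library to 14.11, 14.09 and 14.08, and Tcap, which caps titin, and Myom2, an M-band protein, rose by 0.24 and 0.26. Of the Z-disc and stretch response genes, 15 of 21 were called lower and 4 higher, with a median of -0.14 (12 and 6 after quantile normalization). Myot, the Z-disc protein myotilin, stood at 8.19, 8.27 and 8.32 against 7.47, 7.44 and 7.53. Fhl2, a LIM protein that links titin to signalling, went from 16.11, 16.10 and 16.12 to 15.81, 15.79 and 15.79. Murc, a caveola protein of muscle, fell by 0.37 and Csrp3, a stretch sensor, by 0.22, while Ankrd1 of the same list rose by 1.06. Hspb7, a small heat shock protein of this list, was called at -0.05 but was higher by 0.081 after quantile normalization. In the dystrophin complex and the costamere 16 of 34 were lower and 7 higher, or 11 and 8 after quantile normalization. Dmd, dystrophin, fell from 11.16, 11.14 and 11.13 to 10.81, 10.88 and 10.84.

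Genes of fuel oxidation were lower in male cardioGRKO hearts across nearly every list. Fatty acid uptake and oxidation had 30 of 34 called lower and 2 higher, with a median of -0.23, the lowest of the 58 gene lists as deposited; after quantile normalization antigen presentation and interferon genes were lower still. Decr1, an enzyme for unsaturated fatty acids, stood at 13.67, 13.68 and 13.68 against 13.29, 13.29 and 13.28, and Cd36, the fatty acid transporter, at 15.74, 15.73 and 15.75 against 15.39, 15.41 and 15.38. Ucp2, a mitochondrial carrier, rose from 11.71, 11.73 and 11.75 to 12.38, 12.34 and 12.39. Cpt1b, the gate of fatty acid entry in muscle mitochondria, was not called (-0.03, SE 0.028, adjusted p = 0.48). For the citric acid cycle and pyruvate oxidation 26 of 30 were lower and 2 higher, with a median of -0.16. Quantile normalization gave 20 lower and 3 higher, with a median of -0.091. Apart from Ogdhl, the mitochondrial enzymes Suclg1, Sdha and Idh2 of this list changed by -0.22, -0.17 and -0.16.

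Ketone bodies and branched-chain amino acids are alternative fuels of the heart. Of 6 genes of ketone body use 3 were called lower and 1 higher, with a median of -0.14. Oxct1, which activates ketone bodies, stood at 15.38, 15.33 and 15.35 in floxed and 14.98, 14.97 and 14.95 in cardioGRKO libraries. Bdh1, the dehydrogenase before it, reached 50.7% of the floxed level, from 10.34, 10.36 and 10.34 to 9.34, 9.35 and 9.41. Slc16a1, which imports ketone bodies and lactate, rose by 0.16. Of 21 genes of branched-chain amino acid breakdown, a list that also holds Oxct1, 19 were called lower and 0 higher, with a median of -0.17. Bckdhb, a subunit of the committed dehydrogenase, and Aldh6a1, an enzyme of valine breakdown, fell by 0.38 and 0.36. Got1, an aminotransferase of the malate shuttle, reached 72.7% of its floxed level.

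The respiratory chain followed with smaller steps. Complex I had 22 of 35 lower and 0 higher, with a median of -0.10, and complexes II to V had 29 of 41 lower and 1 higher, with a median of -0.12. Cox7a1, the heart and muscle form of a cytochrome oxidase subunit, stood at 14.68, 14.70 and 14.65 against 14.37, 14.41 and 14.36. Uqcrc2 and Uqcrc1, core proteins of complex III, fell by 0.28 and 0.24, and Ndufv3 of complex I by 0.24. Atp5a1, a subunit of the ATP synthase, changed by -0.18 but was higher by 0.055 after quantile normalization. Of the mitochondrial ribosome 26 of 56 were lower and 1 higher, led by Mrps35 at -0.27, and of the mitochondrial carriers 14 of 33 were lower and 0 higher. Slc25a4, the ADP and ATP exchanger of heart mitochondria, went from 17.45, 17.47 and 17.47 to 17.17, 17.19 and 17.17. Bnip3, a mitophagy receptor, fell by 0.39 in a list of mitochondrial dynamics with 13 of 24 lower and 1 higher. Quantile normalization shrank the medians of complex I and complexes II to V to -0.068 and -0.069, with 15 and 22 members lower and 2 higher in each, and left the signs as they were.

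**Figure D3:**
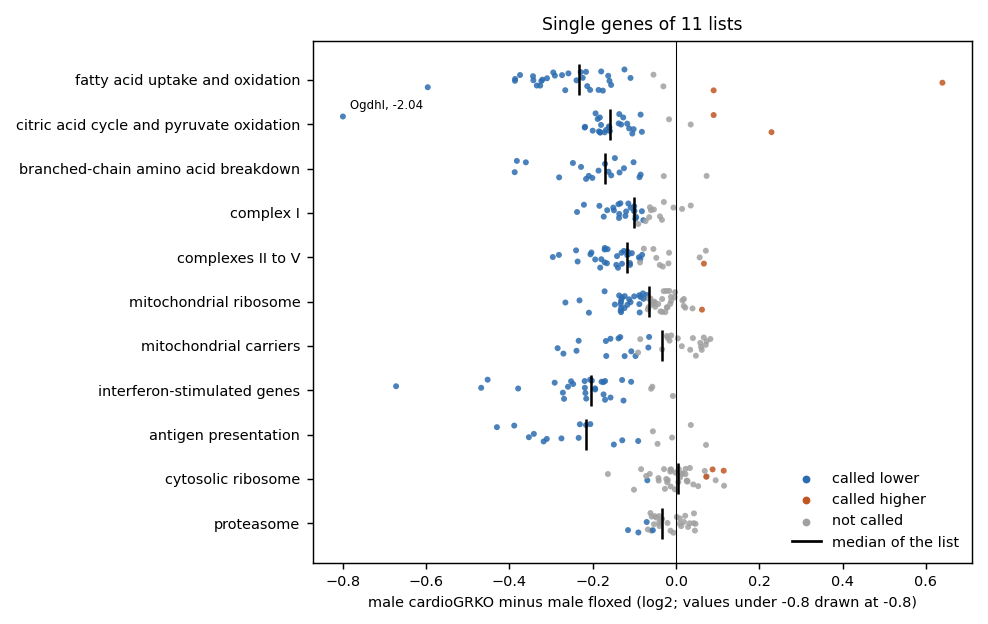
Each point is 1 gene of 1 of 11 lists, placed by its difference of male cardioGRKO minus male floxed in log2 (horizontal axis; vertical scatter within a list has no meaning), blue where called lower, orange where called higher, grey otherwise, with a line at the median of the list. The lists of fuel oxidation and of interferon and antigen genes lie mostly left of 0, with the lowest median, -0.23, for fatty acid oxidation. Medians of mitochondrial carriers and of the proteasome are both -0.033, with 14 of 33 and 4 of 31 genes called lower. Cytosolic ribosome genes lie around 0.

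Energy regulators, creatine and glucose genes completed this group. Of 20 metabolic regulators 10 were lower and 1 higher. Perm1, a muscle cofactor of mitochondrial gene expression, stood at 13.39, 13.34 and 13.32 against 13.03, 12.99 and 13.01. Rxrg and Esrrb, nuclear receptors of oxidative metabolism, fell by 0.25 and 0.23, and the coactivator Ppargc1a by 0.08. Creatine kinase genes moved in opposite directions, with the mitochondrial form Ckmt2 falling from 16.44, 16.42 and 16.44 to 16.06, 16.06 and 16.04 and the brain form Ckb rising from 10.78, 10.80 and 10.72 to 11.35, 11.35 and 11.38. The muscle form Ckm was called lower by 0.06, and was higher by 0.073 after quantile normalization. In glucose uptake and glycolysis 9 of 23 were lower and 2 higher, and in glycogen metabolism 8 of 16 were lower and 4 higher. Quantile normalization left 8 lower and 6 higher, and 6 lower and 5 higher. Gys1, the muscle glycogen synthase, fell by 0.25, whereas Ppp1r3c, which targets phosphatase to glycogen, rose by 0.41. Tbc1d1, a regulator of glucose transporter traffic, rose from 9.96, 9.98 and 9.93 to 10.61, 10.61 and 10.63. Cardiomyocyte and ventricular marker sums, given below, were lower in the same libraries, and their part in these falls was not tested.

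Interferon-stimulated genes, which are switched on as a set by type I and type II interferon, were lower almost throughout. Of 30 tested 27 were called lower and 0 higher, all 30 differences lay below 0, and the median was -0.20. Irf7, the factor that amplifies the response, stood at 9.91, 9.89 and 9.88 in floxed and 9.45, 9.44 and 9.44 in cardioGRKO libraries. Iigp1, a GTPase against intracellular pathogens, fell by 0.67, the double-stranded RNA sensor Oas2 by 0.47 and the antiviral enzyme Rsad2 by 0.38. Mx1, Mx2 and Ddx60 were the 3 members not called. Antigen presentation followed with 14 of 19 lower and 0 higher and a median of -0.22. B2m, the light chain of class I molecules, went from 13.44, 13.41 and 13.49 to 13.11, 13.11 and 13.09. The class II chaperone Cd74 fell by 0.39, and H2-Q4 and H2-K1 by 0.43 and 0.31, although reads of such similar H2 genes may be divided between copies. Among markers of cells that carry class II molecules, 1 of 13 macrophage markers was higher and 1 lower, and 5 of 5 tested B cell markers were higher. With a minimum fold of 1.2 in the test, 1 B cell marker and 0 macrophage markers were higher. The part of cell numbers in these falls was not tested.

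A known element of interferon-driven promoters is shown here for 3 of the named genes that hold it. The letters searched on both strands were GAAANNGAAA, the core of the interferon-stimulated response element. They occurred in the promoters of 440 of 11555 genes (3.81%) and nowhere overlapped the palindrome searched above. Only 22 of 30 interferon genes and 14 of 19 antigen presentation genes had a promoter in the table, 73.3% and 73.7%, so the check of a share over either list is void for lack of entries. The 3 sequences are printed like those above, and Rsad2 holds the letters of the opposite strand.
B2m, chr2:122147508-122147597, plus strand: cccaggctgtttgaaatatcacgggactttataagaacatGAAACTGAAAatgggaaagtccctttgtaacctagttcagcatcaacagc
Igtp, chr11:58199482-58199555, plus strand: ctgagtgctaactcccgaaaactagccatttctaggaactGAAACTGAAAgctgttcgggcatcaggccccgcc
Rsad2, chr12:26456523-26456612, minus strand: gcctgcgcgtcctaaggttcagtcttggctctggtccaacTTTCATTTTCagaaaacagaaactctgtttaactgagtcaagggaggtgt
Their differences were -0.34, -0.27 and -0.38, and in each gene the cardioGRKO libraries lay below the floxed ones.

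Complement genes were more often higher than lower. Of 24 complement and coagulation genes 10 were called higher and 3 lower. Cfd, which starts the alternative pathway and is also an adipocyte marker, stood at 7.97, 7.96 and 8.03 against 8.44, 8.55 and 8.49. C3, the central protein of complement, rose from 11.46, 11.43 and 11.43 to 11.79, 11.70 and 11.74. Thbd, the anticoagulant thrombomodulin of endothelium, fell by 0.23. Cytokines and adhesion molecules were near the share of all genes, with 4 of 27 higher and 5 lower.

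Matrix and signalling genes of the stroma leaned to the higher side. Of 40 matrix proteoglycans and glycoproteins 19 were called higher and 5 lower, with a median of 0.070. Bgn, a small proteoglycan, stood at 12.97, 12.95 and 12.99 against 13.33, 13.27 and 13.28. Cilp2, a matrix protein of cartilage, rose the most in the list, by 1.26. Comp, another cartilage matrix protein, and Eln, elastin, rose by 0.42 and 0.33. Collagens had 9 of 25 higher and 2 lower. The 2 lower ones were Col4a1 and Col4a2, chains of the basement membrane, at -0.15 and -0.11. Matrix enzymes had 11 of 29 higher and 2 lower, led by Adamtsl2, a regulator of growth factor release, which went from 9.90, 9.99 and 9.91 to 10.53, 10.41 and 10.49. Fibroblast markers moved with these lists, but the lists share genes such as the collagen Col3a1, so the 2 observations are not separate. Of 12 such markers 8 were higher and Thy1 was lower, none was at 0, and their summed level was 98.7% to 100.9% of the male floxed mean in floxed and 110.0% to 111.6% in cardioGRKO libraries; their part in the matrix result was not tested.

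Signalling lists held single strong members. In the TGF-beta and BMP list 12 of 32 were higher and 3 lower, among them Bmp10 and the inhibitory Smad6, which rose by 0.33, and Id2, a target of BMP signals, which rose by 0.29. The Wnt list had 13 of 31 higher and 1 lower. Its leading members are secreted modulators, Dkk3 at 1.80, Sfrp5 at 0.92, Wisp2 at 0.39 and Sfrp2 at 0.31. Bmp10 and Dkk3 are also among the 12 atrial markers summed above, so their rises are no separate observation. The adrenomedullin gene Adm, a vasodilator peptide, and Ramp1, a receptor partner of related peptides, rose by 0.33 and 0.42, whereas Aplnr, the apelin receptor, fell by 0.28. Hamp, the iron hormone hepcidin, stood at 7.64, 7.66 and 7.59 against 8.36, 8.35 and 8.33. Alas1, the entry enzyme of heme synthesis, went from 13.04, 13.01 and 13.03 to 12.65, 12.62 and 12.64, in a list of iron and heme genes with 8 of 26 lower and 3 higher (8 and 5 after quantile normalization).

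Clock genes can separate groups whose tissue was taken at different hours, and sampling times were not given in the sources used here. Of 22 clock genes 11 were called higher and 4 lower. Per3, Dbp and Tef, which peak together, stood at 9.36, 9.29 and 9.36 against 9.94, 9.98 and 9.98, at 9.40, 9.37 and 9.31 against 9.94, 9.89 and 9.91, and at 11.24, 11.25 and 11.19 against 11.75, 11.73 and 11.70. Arntl and Nfil3, which peak near the opposite phase, fell by 0.38 and 0.32. In none of these 5 genes did the groups overlap. Per1, which both the clock and the receptor control, was called at -0.09 (SE 0.024, adjusted p = 0.0073). The time of sampling was not tested. Of 24 immediate early genes, which respond to handling within minutes, 4 were higher and 3 lower. The share called was 29.2%, near the 27.4% of all genes tested. Nr4a1 rose by 0.43 and Zfp36 fell by 0.27.

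Several lists of basic cell machinery were called no more often than genes at large. The cytosolic ribosome had 3 of 39 called higher and 1 lower, the proteasome 0 higher and 4 of 31 lower, and cholesterol synthesis 2 of 18 higher and 1 lower. In the cell cycle 2 of 28 were higher and 4 lower, with Ccnd2, a cyclin of growing heart muscle, rising from 11.52, 11.51 and 11.61 to 11.91, 11.90 and 11.92 and the proliferation marker Mki67 at -0.01 (SE 0.028, adjusted p = 0.81). Endoplasmic reticulum chaperones and stress genes had 10 of 25 higher and 1 lower, with a largest rise of 0.29 for Ppp1r15a. Among p53 targets 9 of 26 were higher and 4 lower, led by the AKT inhibitor Phlda3, which went from 9.23, 9.13 and 9.14 to 9.72, 9.73 and 9.78. Antioxidant genes had 13 of 38 lower and 7 higher, with Mgst1 and Mgst3, membrane glutathione transferases, at -0.80 and -0.40.

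**Figure D4:**
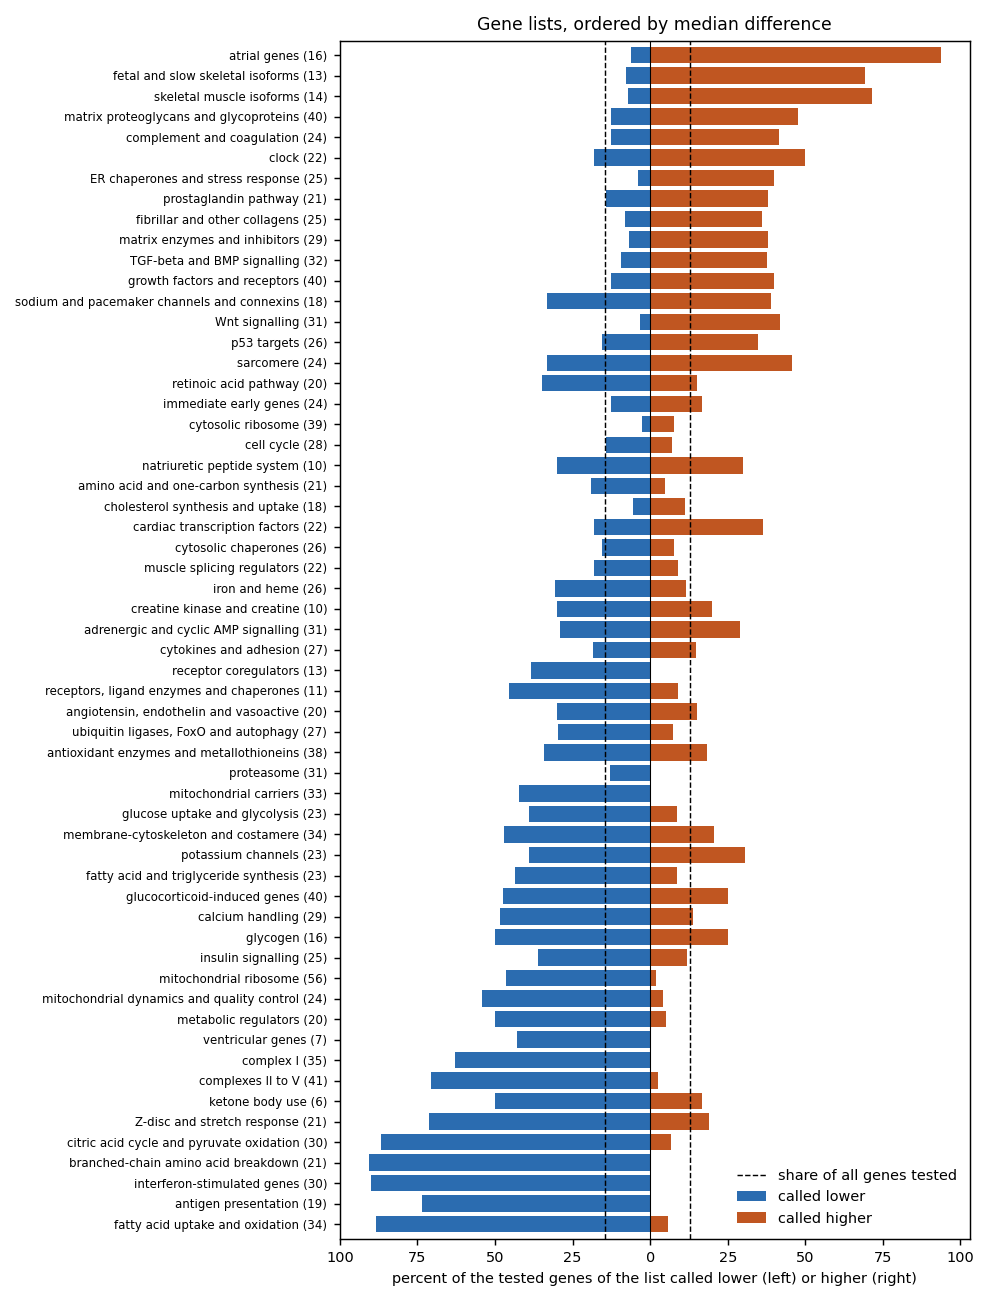
For each of the 58 gene lists (number of tested genes in brackets), the bars give the percent of tested genes called lower (left, blue) and higher (right, orange) in male cardioGRKO against male floxed, ordered by the median difference, and dashed lines mark the shares over all genes tested, 14.6% lower and 12.8% higher. Atrial genes stand at the top with 15 of 16 higher, and fatty acid oxidation, antigen presentation, interferon and branched-chain amino acid genes at the bottom with no or few members higher.

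Markers of several cell types differed between the 2 male groups, each list summed on the linear scale. The sum over 15 cardiomyocyte markers was 98.6% to 101.3% of the male floxed mean in floxed libraries and 92.3% to 93.4% in cardioGRKO libraries, with 10 markers called lower and 2 higher. For 6 ventricular markers it was 99.9% to 100.2% and 88.0% to 90.2%, with 3 lower and 0 higher. This too depended on the scaling, since quantile normalization left 4 cardiomyocyte markers higher and 4 lower, and moved the ventricular marker median from -0.11 to 0.014. Endothelial markers summed to 99.6% to 100.3% and to 91.2% to 93.0%, with 11 of 15 lower and 2 higher. Ly6c1, a marker of capillary endothelium, went from 11.91, 11.95 and 11.91 to 11.60, 11.63 and 11.51, while Vwf, a marker of larger vessels and endocardium, rose by 0.31.

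Smaller populations moved as well. Smooth muscle and pericyte markers had 8 of 11 lower and 1 higher. Epicardial and mesothelial markers had 6 of 10 higher and 0 lower, led by the mesothelial Upk3b, which stood at 8.23, 8.24 and 8.20 against 8.81, 8.73 and 8.69. Skeletal muscle markers had 8 of 10 tested higher and 0 lower, and their sum was 98.9% to 101.2% in floxed and 127.8% to 129.9% in cardioGRKO libraries. Casq1, Myl1 and Atp2a1 led them at 1.37, 0.46 and 0.35. B cell markers summed to 97.0% to 101.7% and 134.9% to 136.1%, and Blk alone, at 7.95, 7.95 and 7.86 against 8.63, 8.62 and 8.64, exceeded a rise of 0.14 among the 5 tested. Adipocyte markers summed to 98.1% to 101.2% and 79.7% to 79.9%, with 4 of 8 tested lower and 2 higher, Fabp4 at -0.34 and Ucp1 at -0.48 among the lower ones. Fabp4 is in the endothelial marker list as well, and the adipocyte sum was not taken without it. Macrophage sums were 99.7% to 100.3% against 100.5% to 104.5%, and T and NK cell sums overlapped, at 98.3% to 101.3% against 98.2% to 99.0%. The only markers at 0 in all libraries were 2 of the 5 erythroid ones. None of these shifts was tested as a source of the differences above.

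**Figure D5:**
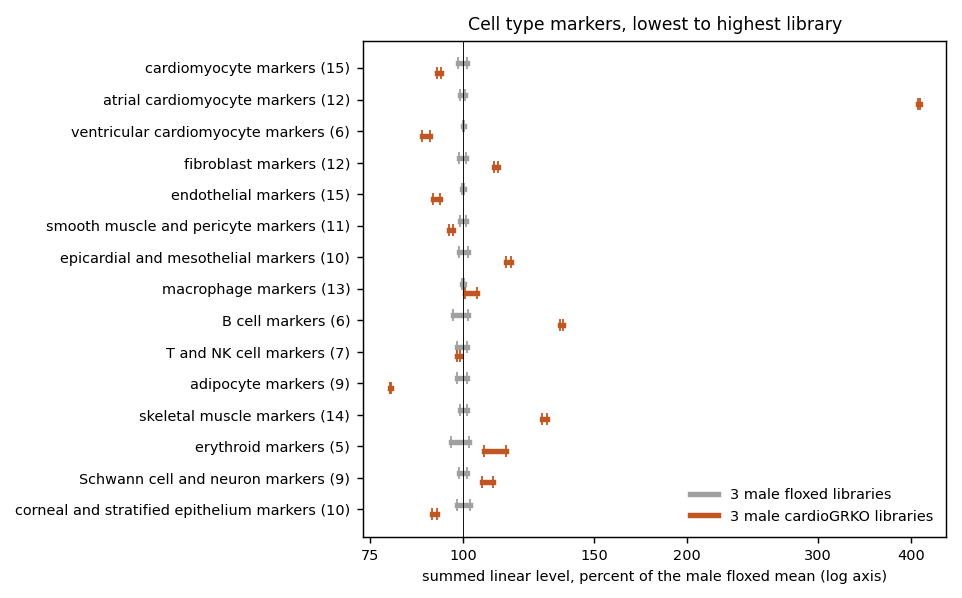
Summed linear level of each marker list as a percent of the male floxed mean (horizontal log axis), drawn from the lowest to the highest of the 3 male floxed (grey) and 3 male cardioGRKO libraries (orange), with the number of genes summed in brackets. Atrial markers stand at 409.7% to 411.5%, B cell markers at 134.9% to 136.1%, and adipocyte markers lowest at 79.7% to 79.9%. Fabp4 is counted in both the adipocyte and the endothelial sum.

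The same contrast in the libraries labelled female often had the other sign, with the reservation that Nr3c1 was higher by 0.14 there under the cardioGRKO label, against what the label implies. The difference between the male and the female contrast was called for 4612 genes, 31.3% of those tested, and for 2898 of the 4032 genes called in males. Of the 1879 genes higher in males 331 were also called higher under the female labels and 537 lower, and of the 2153 lower ones 249 were called lower and 724 higher. Among lists, atrial genes had a median of 1.204 in males and -0.48 under the female labels, and the difference was called for 16 of 16 members. Fatty acid oxidation had -0.23 and 0.14, with 33 of 34 differences called, and interferon genes -0.20 and 0.088, with 28 of 30 called. Of the 40 glucocorticoid-induced genes, the difference was called in the positive direction for 15 and in the negative direction for 11. Ptgds, for example, changed by -1.10 in males and by 0.33 under the female labels. Sgk1, Trim63 and Fkbp5 behaved otherwise. They changed by -0.38, -0.17 and -0.21 in males and by -0.34, -0.14 and -0.18 under the female labels, and the difference was not called for any of them (adjusted p = 0.33, 0.51 and 0.59), which does not show that the contrasts are equal.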

How the data were processed

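RNA from 12 mouse heart samples was sequenced by the authors from Illumina TruSeq libraries, per the labels' protocols. Per the submitters' processing notes, the tools were Trim Galore, TopHat2, HTSeq and DESeq2 with build mm9; versions and the strand setting are not given in the sources used here. The authors deposited log2 normalized values, 1 per gene and library, so depth is unknown, no count test was possible, and the spread between libraries is the measure of precision. If the values were shrunken before deposit, differences of low genes are understated. Of 24918 genes 4895 were at 0 in all libraries, and 27 symbols that had turned into dates were restored.

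limma 3.58.1 in R 4.3.3 fitted 1 mean per group to all 12 libraries (8 residual degrees of freedom) with an intensity trend; genes at log2 of 10 or more in 3 libraries were tested, adjusted by Benjamini-Hochberg and called under 0.05. The fit was tested on simulated data. Samples were grouped by title. Lists were counted and not tested. The members and the 58 gene and 15 marker lists were chosen with earlier results of these data known. Genes were named, where described, by a rule that takes Nr3c1, the 25 largest rises and 25 largest falls without overlap, up to 5 called members of each list with the smallest p, and the 10 largest differences from the female contrast in each direction. Gene models without a proper symbol were left out of these rankings. Tsc22d3, Per1, Nr3c2, Mt1, Fam107a, Dusp1, Nfkbia, Foxo3, Cebpd, Kcna5, Chrm2, Vegfa, Acot2, Nkx2-5, Tbx3, Myh7, Npr1, Trdn, Casq2, Camk2d, Cacnb2, Cpt1b, Mx1, Mx2, Ddx60 and Mki67 were chosen after their values were seen. Marker sums add linear values. Normalization, filters, a minimum fold, fit settings, left-out libraries and a replicate block were varied.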

Additional observations from a re-analysis of the deposited data

Results flagged for a closer look

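Each of the following was singled out because the male difference and that of the libraries labelled female differed by the interaction test (limma, adjusted p under 0.05). The values are the male minus the female difference in log2. Nr3c1 differed by -0.70, since it was lower in male cardioGRKO and higher under the female cardioGRKO label. The atrial genes differed in the positive direction, Nppa by 3.90, Bmp10 by 3.17, Myl4 by 2.93, Dkk3 by 2.81, Myl7 by 2.79, Sln by 2.58 and Mybphl by 2.40. Among metabolic and interferon genes Ogdhl differed by -2.03, Ptgds by -1.43, Bdh1 by -1.25, Mgst1 by -1.03 and Iigp1 by -0.98. Adipocyte and lipid genes were also on the negative side, with Ucp1 at -2.14, Scd1 at -2.13, Fasn at -1.44, Car3 at -1.36 and Pck1 at -1.18. The corneal and epithelial genes Krt12, Krt5 and Aldh3a1 differed by 3.67, 3.29 and 3.22, and these values rest on the libraries labelled female floxed 1 and 2. Groups of 3 libraries are too small for a test of single outlying libraries.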

How the results depend on the processing

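With a minimum fold of 1.2 in the test, 184 genes were called in place of 4032, 111 higher and 73 lower, and 420 in place of 4612 for the difference from the female contrast, since most differences are smaller than that. Leaving out 1 library at a time gave 3391 to 4269 genes called and 4133 to 4907 for the difference. The other settings gave 3752 to 4494 called: quantile normalization 3817, no low-level filter 3892, a minimum of log2 of 50 3950, median centring 4198, no trend 4032, robust variances 4285, library weights 4284, the 6 male libraries alone 4494, and without the libraries labelled female floxed 1 and 2 4453. Median centring lowered the share of higher calls from 46.6% to 38.3%. With the replicate number as a block 3752 genes were called and 4428 for the difference; the correlations of same-numbered male libraries were 0.066, -0.056 and -0.031, so the numbers did not pair them. Quantile normalization turned the sign of Fkbp4 (0.00081), Myl3 (0.051), Atp5a1 (0.055), Ckm (0.073) and Hspb7 (0.081). Of the 324 named genes called, 16 others lost their call. The median of ventricular genes changed sign too, as did those of several lists that lay near 0. Examples are cytosolic chaperones (-0.011 to 0.029), creatine genes (-0.015 to 0.015) and the cell cycle (0.0039 to -0.011). The cause was not tested. Nr3c1 stayed at -0.55 to -0.57 throughout. Without counts, no limit from depth could be set.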

Other observations

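A few transcripts varied between libraries of 1 group far more than the median SD. Rn45s, the ribosomal RNA precursor, stood at 15.59, 15.53 and 16.37 in male floxed and 14.76, 16.15 and 15.13 in male cardioGRKO libraries. Lars2, a mitochondrial tRNA synthetase whose gene holds a repeat similar to ribosomal RNA, stood at 12.81, 12.68 and 13.43 and at 12.29, 13.19 and 12.49. Both were highest in the same library of each group, floxed 3 and cardioGRKO 2. Ccdc63 was lowest in floxed 3 and highest in cardioGRKO 2, at 9.34 and 10.54. None of the 3 was called (adjusted p = 0.44, 0.49 and 0.75 for Rn45s, Lars2 and Ccdc63).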
